A study of Mus musculus with 34 samples.

Results

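The immunity-related GTPases (IRG family) are interferon-inducible GTPases that defend mouse cells against intracellular pathogens. Here the family was followed through 6 genes: Irgm1, Irgm2 and Igtp, which encode regulatory members, and Iigp1, Tgtp1 and Tgtp2, which encode effector members. The regulatory proteins, Igtp being also called Irgm3, sit on host membranes and hold the effectors in an inactive state. The effectors, Iigp1 being also called Irga6 and the Tgtp proteins Irgb6, load onto the vacuole around a pathogen such as Toxoplasma gondii and break it open. Transcription of the family is driven by interferon gamma, in part through the factor Irf1, and in macrophages also by type I interferon, and human cells lack most of the family. The 6 genes were chosen by symbol among 24475 genes of 1 count table, by matching Entrez Gene IDs to RefSeq names. The rule uses no measured value, but the family was picked with earlier results of these data known.

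RNA was measured in 34 libraries of sorted cells from C57/Bl6 mice. Tumors came from 2 transplantable mouse lines, MC38, a colon adenocarcinoma, and LLC, the Lewis lung carcinoma. With 4 libraries each, the groups from mice were tumor macrophages from MC38 (MC38 TuMac) and from LLC (LLC TuMac), tumor monocytes sorted as Ly6C+ CD88+ Sca1+ from MC38 (TuMon1) and as Ly6C+ CD88+ Sca1- from LLC (TuMon2), and Ly6C+ monocytes from the spleens of MC38-bearing (MC38 spMon) and LLC-bearing mice (LLC spMon). Bone marrow Ly6C+ monocytes were cultured with MC38 supernatant (3 libraries, labelled with the TuMon1 phenotype), with LLC supernatant (3 libraries, labelled with the TuMon2 phenotype) or untreated (4 control libraries). The labels give no genotype other than the strain, no age, no time in tumor or culture, and no gate for the macrophages. All Sca1+ tumor monocytes were from MC38 and all Sca1- ones from LLC, so tumor line and Sca1 gate cannot be told apart. The labels do not say whether replicates were separate mice or cultures, so p-values measure only the spread between these libraries, which may be technical.

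Of the members, 5 lie on chromosome 11 (build GRCm38). Irgm1 is at chr11:48865245-48871420 (minus strand), Tgtp1 at chr11:48985329-48992246 and Tgtp2 at chr11:49057196-49064212 (both minus). Igtp at chr11:58199556-58207592 and Irgm2 at chr11:58214977-58222783 are plus-strand neighbours. The stretches of promoter below are shown because they hold 2 letter patterns known from interferon-responsive genes, the core of the interferon-stimulated response element, bound by Irf factors (ISRE, searched as GAAA, any 2 bases, GAAA), and the interferon-gamma-activated site (GAS, searched as TTC, any 3 bases, GAA), both searched on both strands. Each is 60 bases of the RefSeq promoter (GRCm38.p6), written 5′ to 3′ on the strand of the gene, with every base that belongs to a pattern in capitals.
Irgm1, chr11:48871416-48871475, minus strand: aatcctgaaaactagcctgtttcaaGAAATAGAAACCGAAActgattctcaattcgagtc
Irgm2, chr11:58214888-58214947, plus strand: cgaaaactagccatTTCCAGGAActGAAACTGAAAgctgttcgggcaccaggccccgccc
Igtp, chr11:58199497-58199556, plus strand: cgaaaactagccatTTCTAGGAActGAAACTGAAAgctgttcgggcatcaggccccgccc
Tgtp1, chr11:48992289-48992348, minus strand: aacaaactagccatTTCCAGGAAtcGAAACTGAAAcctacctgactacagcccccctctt
Tgtp2, chr11:49064248-49064307, minus strand: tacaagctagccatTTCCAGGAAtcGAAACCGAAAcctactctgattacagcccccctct
The ISRE core was in 5 of these 5 promoters and the GAS in 4 of them, Irgm1 being the exception, with 2 overlapping ISRE cores. In Irgm2, Igtp, Tgtp1 and Tgtp2 the GAS came first and the ISRE core followed 2 bases after it. Of 32851 RefSeq promoters of 300 bases, 3.44% held the ISRE core, 8.30% the GAS and 0.454% both. The stretches were placed on the ISRE core and some are near copies of each other, so these shares do not test the members. The windows of Irgm2 and Igtp were identical at 58 of 60 bases, those of Tgtp1 and Tgtp2 at 44, and those of Irgm2 and Tgtp1 at 40, compared without gaps. The promoter of Iigp1 was not examined. A match is only a run of letters, and whether a factor binds there was not measured.

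Library totals lay between 13047772 and 26966644 expected counts. Macrophage markers (7 genes) summed to 12611 to 13458 CPM (counts scaled to a common library total) in MC38 and 8216 to 9445 CPM in LLC macrophages, and to between 1234 and 1786 CPM in spleen monocytes. In 5 libraries transcripts of other tissues stood out. Fat cell markers summed to 6360, 5972 and 10511 CPM in replicates 1 to 3 of MC38 spMon, against 21.6 CPM in replicate 4 and 8.34 to 12.5 CPM in LLC spMon. Fibroblast and endothelial markers summed to 2306 CPM in replicate 3 of the MC38 supernatant, against 26.1 and 25.9 CPM in the other two, and epithelial markers to 78.7 CPM in replicate 2 of the culture control, against 0.151 to 0.693 CPM in the others. Values without these 5 doubted libraries are given beside the comparisons that use them.

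Iigp1, the member outside chromosome 11, lies at chr18:60373616-60392634 (plus strand, GRCm38). All 6 members were highest in cells from MC38 tumors, and every mean lowest in cultured cells without MC38 supernatant, in the levels over all 9 groups. Levels are CPM on a common scale over the 34 libraries, as mean ± SD over 4 libraries a group (3 for each supernatant). Irgm1 averaged 355 ± 27.1 CPM in MC38 and 74 ± 7.46 in LLC macrophages, 555 ± 35.1 in TuMon1 and 177 ± 8.59 in TuMon2, 143 ± 14.2 in MC38 and 155 ± 26.5 in LLC spleen monocytes, and 260.1 ± 15.9 with MC38 supernatant, 67.4 ± 2.53 with LLC supernatant and 63.8 ± 7.89 in the culture control. Iigp1 averaged 323 ± 71.2 CPM in MC38 and 29.6 ± 8.36 in LLC macrophages, 295 ± 30.04 in TuMon1 and 17.7 ± 3.32 in TuMon2, 6.02 ± 3.08 in MC38 and 3.72 ± 5.15 in LLC spleen monocytes, and 17.3 ± 3.22 with MC38 supernatant, 0.238 ± 0.113 with LLC supernatant and 0.209 ± 0.0936 in the culture control. The regulator Irgm1 was thus well detected in every group, while the effector Iigp1 averaged below 1 CPM in 2 of them. The highest group mean was 8.70 times the lowest for Irgm1, 5.79 times for Irgm2 and 18.9 times for Igtp, but 91.3 times for Tgtp2 and 121 times for Tgtp1 and Tgtp2 together. For Iigp1 it was 1544 times, against 19 counts in all 4 control libraries. For Tgtp1 no ratio is given, since its lowest group, the LLC supernatant, had 12 counts in 1 library and 0 in the others.

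**Figure D1:**
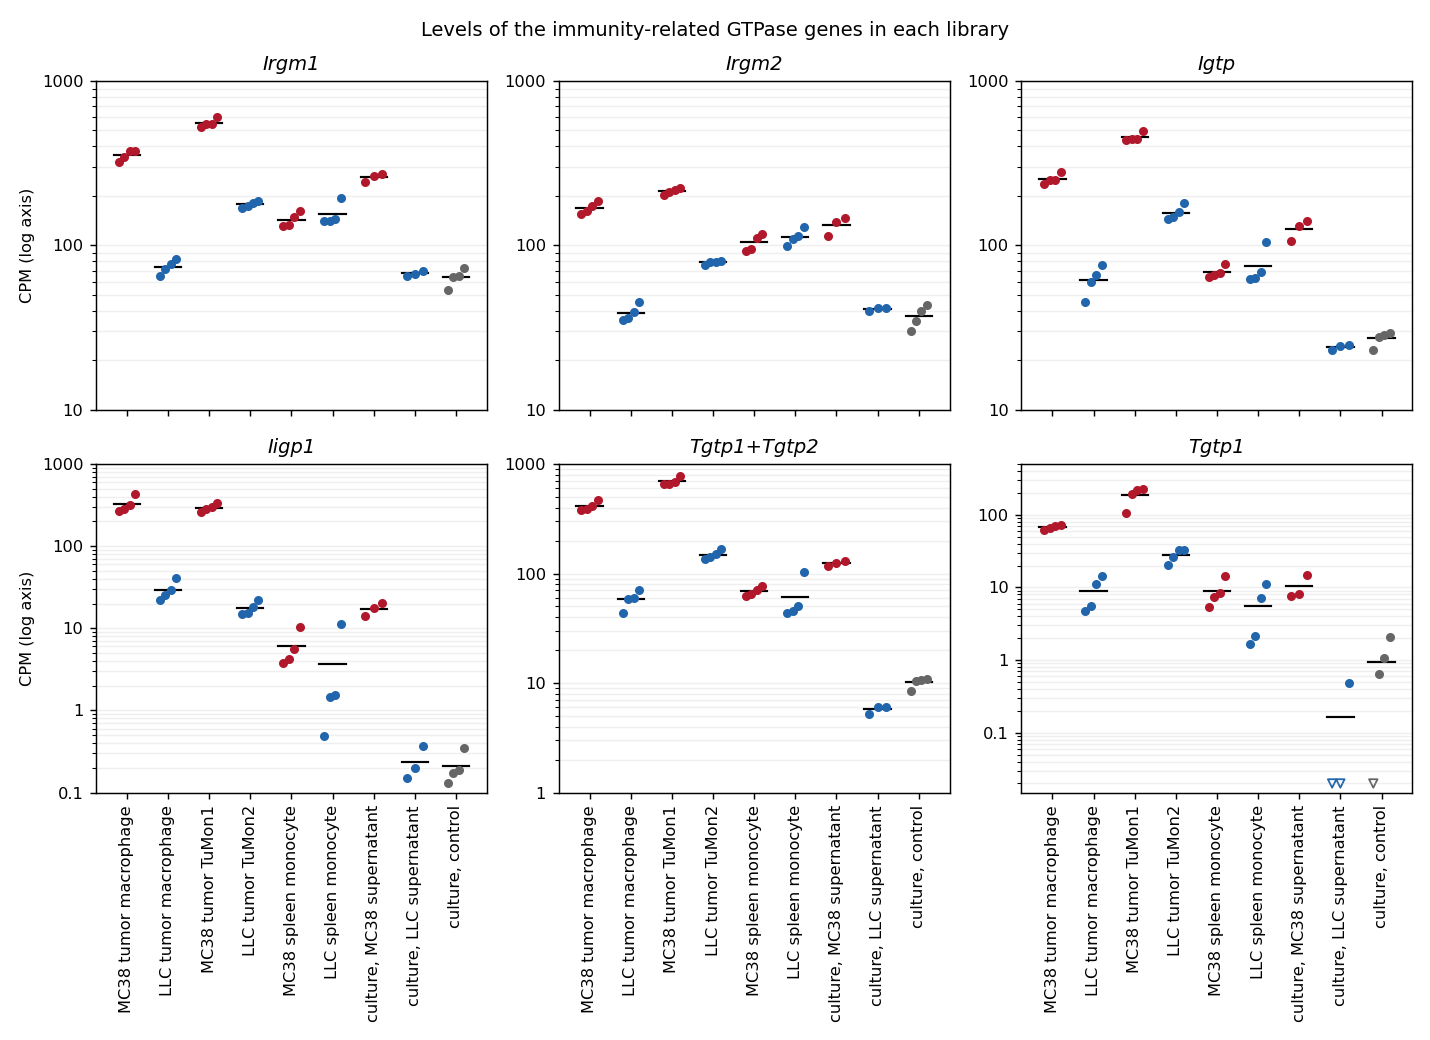
Levels of Irgm1, Irgm2, Igtp, Iigp1, the sum of Tgtp1 and Tgtp2, and Tgtp1 alone in CPM (log axis) in the 9 groups; points are libraries, bars group means, open triangles libraries listed at 0, red marks MC38, blue LLC and grey the culture control. All panels show the MC38 tumor groups at the top, and Iigp1 spans from a mean of 323 CPM in MC38 macrophages to 0.209 CPM in the culture control.

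The order of the groups was the same at the top for Irgm1, Irgm2, Igtp, Tgtp1 and Tgtp2: TuMon1 was highest and MC38 macrophages second, with no overlap of their libraries. For Iigp1 the MC38 macrophages came first and TuMon1 second, and their libraries overlapped. Irgm2, a regulator, averaged 169 ± 12.9 CPM in MC38 and 38.9 ± 4.74 in LLC macrophages, 214 ± 9.46 in TuMon1 and 78.7 ± 1.56 in TuMon2, 104 ± 11.9 in MC38 and 113 ± 12.8 in LLC spleen monocytes, and 133 ± 16.9, 40.9 ± 1.05 and 36.9 ± 5.64 with MC38 supernatant, with LLC supernatant and in the control. For Irgm2 both spleen groups lay above TuMon2, without overlap, and they overlapped each other. Igtp, the remaining regulator, averaged 253 ± 18.3 CPM in MC38 and 61.7 ± 12.8 in LLC macrophages, 455 ± 26.6 in TuMon1 and 158 ± 16.6 in TuMon2, 68.8 ± 5.49 in MC38 and 74.9 ± 20.2 in LLC spleen monocytes, and 126 ± 18.1, 24.1 ± 1.003 and 27.1 ± 2.77 with MC38 supernatant, with LLC supernatant and in the control. Its middle neighbours LLC spMon, MC38 spMon and LLC macrophages overlapped each with the next. At the bottom, LLC supernatant and control overlapped for Irgm1, Iigp1, Igtp and Tgtp1. For Tgtp2 the 3 LLC-supernatant libraries lay below the 4 control libraries.

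In TuMon1 against TuMon2, all 6 members rose. Irgm1 measured 548, 522, 545 and 604 CPM in TuMon1, against 173, 168, 182 and 187 CPM in TuMon2, a log2 difference of 1.64 ± 0.099 (SE; 3.13-fold; edgeR quasi-likelihood adjusted p = 2.42e-12). Iigp1 measured 259.8, 285, 302 and 332 CPM in TuMon1, against 15, 15.4, 18.2 and 22.2 CPM in TuMon2, a log2 difference of 4.05 ± 0.51 (16.6-fold; edgeR adjusted p = 2.33e-06). Every TuMon1 library lay above every TuMon2 library for both genes, and the effector had the larger log2 difference. Tgtp2 measured 471, 582, 439 and 555 CPM in TuMon1, against 114, 116, 118 and 134 CPM in TuMon2, a log2 difference of 2.09 ± 0.19 (edgeR adjusted p = 1.68e-08). Igtp measured 439, 445, 441 and 495 CPM in TuMon1, against 149, 144, 159 and 181 CPM in TuMon2, a log2 difference of 1.52 ± 0.14 (edgeR adjusted p = 5.55e-09). Again no library of one group reached the other. Irgm2 differed by 1.44 ± 0.089 and Tgtp1 by 2.72 ± 0.44 on the log2 scale (edgeR adjusted p = 3.97e-12 and 4.10e-05). Of 13200 genes tested, 48.9% were called at an adjusted p below 0.05, 26.8% higher and 22.1% lower in TuMon1, and the median log2 difference over all genes was 0.06.

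Beside this comparison, T and NK cell markers (13 genes) summed to 12.5 to 16.8 CPM in TuMon1 and 2.13 to 3.74 CPM in TuMon2, with Cd3e, Cd3g and Cd8b1 at 0 in all TuMon2 libraries. Macrophage markers summed to 7379 to 8188 CPM in TuMon1 and 3317 to 3554 CPM in TuMon2, and monocyte markers (5 genes) to 7233 to 7788 and 9174 to 9801 CPM. Epithelial tumor cell markers (5 genes) summed to 5.77 to 8.1 CPM in TuMon1 and 42.5 to 67.6 CPM in TuMon2, where Krt19 was at 0 in all libraries. Fibroblast and endothelial markers (5 genes) summed to 107 to 118 and 43.4 to 69.4 CPM, and neutrophil markers (6 genes) to 20.4 to 27.6 and 75.4 to 111 CPM. Their part in the difference was not tested. In bulk RNA, fewer cells of a type and less RNA per cell cannot be told apart.

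The same direction was found between the macrophages of the 2 tumors, where all 6 members rose in MC38. Irgm1 measured 344, 377, 321 and 376 CPM in MC38 macrophages, against 77.2, 65, 71.3 and 82.3 CPM in LLC macrophages, a log2 difference of 2.26 ± 0.10 (4.8-fold; edgeR adjusted p = 6.89e-15). Tgtp2 measured 314, 340.02, 325 and 401 CPM in MC38 macrophages, against 52.9, 39.1, 45.9 and 59.8 CPM in LLC macrophages, a log2 difference of 2.81 ± 0.20 (6.99-fold; edgeR adjusted p = 1.93e-10). Groups did not overlap for either gene. Iigp1 measured 265, 287, 313 and 425 CPM in MC38 macrophages, against 29.1, 22, 25.8 and 41.3 CPM in LLC macrophages, a log2 difference of 3.45 ± 0.49 (10.9-fold; edgeR adjusted p = 9.49e-06). Iigp1 was the most uneven of the members within the MC38 macrophages, its highest library standing well above the lowest, yet the lowest stood above every LLC library. Irgm2, Igtp and Tgtp1 differed by 2.12 ± 0.092, 2.04 ± 0.14 and 2.96 ± 0.46 on the log2 scale, all called. Over all genes 45.3% were called, 22.4% higher and 22.9% lower in MC38, with a median log2 difference of -0.0026. T and NK cell markers summed to 8.32 to 15 CPM in MC38 and 3.21 to 6.3 CPM in LLC macrophages, where Cd3g, Cd8b1 and Ncr1 were at 0 in all libraries. Sums of the following marker lists did not overlap between the same groups either. Epithelial tumor cell markers summed to 5.68 to 8.37 CPM in MC38 and 94.7 to 148 CPM in LLC macrophages, where Epcam and Krt19 were at 0 in all libraries. B cell markers (4 genes) summed to 29.7 to 32.8 CPM in MC38 and 2.66 to 5.14 CPM in LLC macrophages, fibroblast and endothelial markers to 107 to 134 and 26.1 to 45.3 CPM, and monocyte markers to 2778 to 3322 and 5728 to 6826 CPM. Their part was not tested.

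Between spleen monocytes of the mice with the 2 tumors, no member passed the test. Irgm1 measured 131, 149, 132 and 161 CPM in MC38 spMon, against 145, 141, 195 and 140.01 CPM in LLC spMon (log2 difference -0.091 ± 0.097, edgeR adjusted p = 0.514). Iigp1 measured 10.5, 4.24, 5.62 and 3.74 CPM in MC38 spMon, against 1.46, 1.52, 11.4 and 0.482 CPM in LLC spMon (log2 difference 0.60 ± 0.56, edgeR adjusted p = 0.455). Groups overlapped for both, and replicate 3 of LLC spMon stood apart. Of the members 0 of 6 were called by edgeR and 0 by DESeq2, and 0 had an unadjusted p below 0.05 in edgeR, while 28.4% of all genes were called, 14.4% higher and 14% lower in MC38 spMon. Of these calls 50.7% were higher (62.1% under RLE scaling, 66.8% under upper quartile scaling, 60.3% by DESeq2). T and NK cell markers summed to 13.3 to 16.3 CPM in MC38 spMon and 46 to 70.4 CPM in LLC spMon, and neutrophil markers to 538 to 2367 and 2024 to 3273 CPM, and their part was not tested. Without the 5 doubted libraries, 1 MC38 spMon library remained, assumed to vary like the other groups, and 22 genes in all were called, none of them a member.

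Replicate 3 of LLC spMon had the highest value of its group for all 6 members. For Irgm2 it measured 130 CPM, against 99.4 to 114 CPM in the others, and for Tgtp1 11.2 CPM, against 1.65 to 7.16 CPM. Its Iigp1 level was 11.4 CPM, against 1.52 CPM in the next library, and its Tgtp2 level 91.0 CPM, against 44.3 CPM. The same library also had the highest Gbp2 of the group, a guanylate-binding protein gene, at 213 CPM against 102 to 109 CPM. It was highest as well for Irf1 (332 CPM against 240 to 250 CPM) and Irf7 (475 CPM against 288 to 343 CPM), and lowest for Ifngr1 (844 CPM against 879 to 908 CPM). Its T and NK cell markers summed to 46.0 CPM, against 52.8 to 70.4 CPM in the other LLC spMon libraries, and its Ifng count was 3, against 4, 6 and 14. Without it, Iigp1 (log2 difference 2.32 ± 0.42, adjusted p = 5.48e-04) and Tgtp2 (0.49 ± 0.12, adjusted p = 0.00524) were called higher in MC38 spMon by edgeR. The MC38 spMon libraries with fat cell markers stayed in that fit. Its member values led to this library being singled out, so calls gained without it, here and below, are in part set by that choice.

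Against spleen monocytes, tumor monocytes held more of the family as a whole in the MC38-bearing mice and in part in the LLC-bearing mice. As given above, spleen monocytes were sorted by Ly6C and tumor monocytes also by CD88 and Sca1. Tissue and sort gate therefore cannot be told apart, here and in the tumor-minus-spleen comparisons below. TuMon1 held more of all 6 members than MC38 spMon: the log2 differences were 1.93 ± 0.0996 for Irgm1, 1.02 ± 0.088 for Irgm2 and 2.71 ± 0.15 for Igtp, and 5.6 ± 0.56 for Iigp1, 4.39 ± 0.48 for Tgtp1 and 3.08 ± 0.20 for Tgtp2, with edgeR adjusted p-values of at most 1.23e-07. The log2 differences of the effectors were the larger ones. The comparisons with TuMon1 and with MC38 macrophages share libraries, as do those on the LLC side. Of all genes 70.1% were called, 33.5% higher and 36.6% lower in TuMon1. Without the 5 doubted libraries all 6 stayed called, with 1.77 ± 0.17 for Irgm1 and 6.29 ± 1.12 for Iigp1, against a single remaining MC38 spMon library. Neutrophil markers summed to 20.4 to 27.6 CPM in TuMon1 and 538 to 2367 CPM in MC38 spMon, macrophage markers to 7379 to 8188 and 1235 to 1786 CPM, and T and NK cell markers to 12.5 to 16.8 and 13.3 to 16.3 CPM, and their part was not tested.

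TuMon2 against LLC spMon was mixed. Igtp (1.08 ± 0.14), Iigp1 (2.15 ± 0.54), Tgtp1 (2.32 ± 0.48) and Tgtp2 (1.13 ± 0.19) rose on the log2 scale and Irgm2 fell (-0.52 ± 0.088, edgeR adjusted p = 1.50e-05). Irgm2 measured 76.4, 79.9, 79.5 and 79.1 CPM in TuMon2, against 114, 109, 130.02 and 99.4 CPM in LLC spMon, without overlap. Irgm1 did not pass, at 0.19 ± 0.097 (adjusted p = 0.0828), and passed without replicate 3 of LLC spMon (0.32 ± 0.087, adjusted p = 0.00299), where Iigp1 reached 3.88 ± 0.40. Irgm1 also passed in a fit of only these groups (0.23 ± 0.091, adjusted p = 0.0349). Over all genes 62.6% were called, 28.6% higher and 34% lower in TuMon2. Neutrophil markers summed to 75.4 to 111 CPM in TuMon2 and 2024 to 3273 CPM in LLC spMon, macrophage markers to 3317 to 3554 and 1234 to 1454 CPM, and T and NK cell markers to 2.13 to 3.74 and 46 to 70.4 CPM, and their part was not tested.

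The tumor-minus-spleen change was larger on the MC38 side for all 6 members, by a test of the difference itself. On the log2 scale it was larger by 1.74 ± 0.14 for Irgm1, 1.54 ± 0.12 for Irgm2 and 1.62 ± 0.20 for Igtp, and by 3.45 ± 0.74 for Iigp1, 2.07 ± 0.65 for Tgtp1 and 1.95 ± 0.27 for Tgtp2 (edgeR adjusted p from 9.68e-10 for Irgm1 to 0.0148 for Tgtp1). Of all genes 42.9% were called, 23.8% higher and 19.1% lower on the MC38 side. Without replicate 3 of LLC spMon, Iigp1 was at 1.73 ± 0.53 (adjusted p = 0.0159) and Tgtp1 lost its call (1.39 ± 0.63, adjusted p = 0.0939). Without the 5 doubted libraries Tgtp1 also lost it (2.13 ± 0.93, adjusted p = 0.108) and the other 5 members kept theirs.

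**Figure D2:**
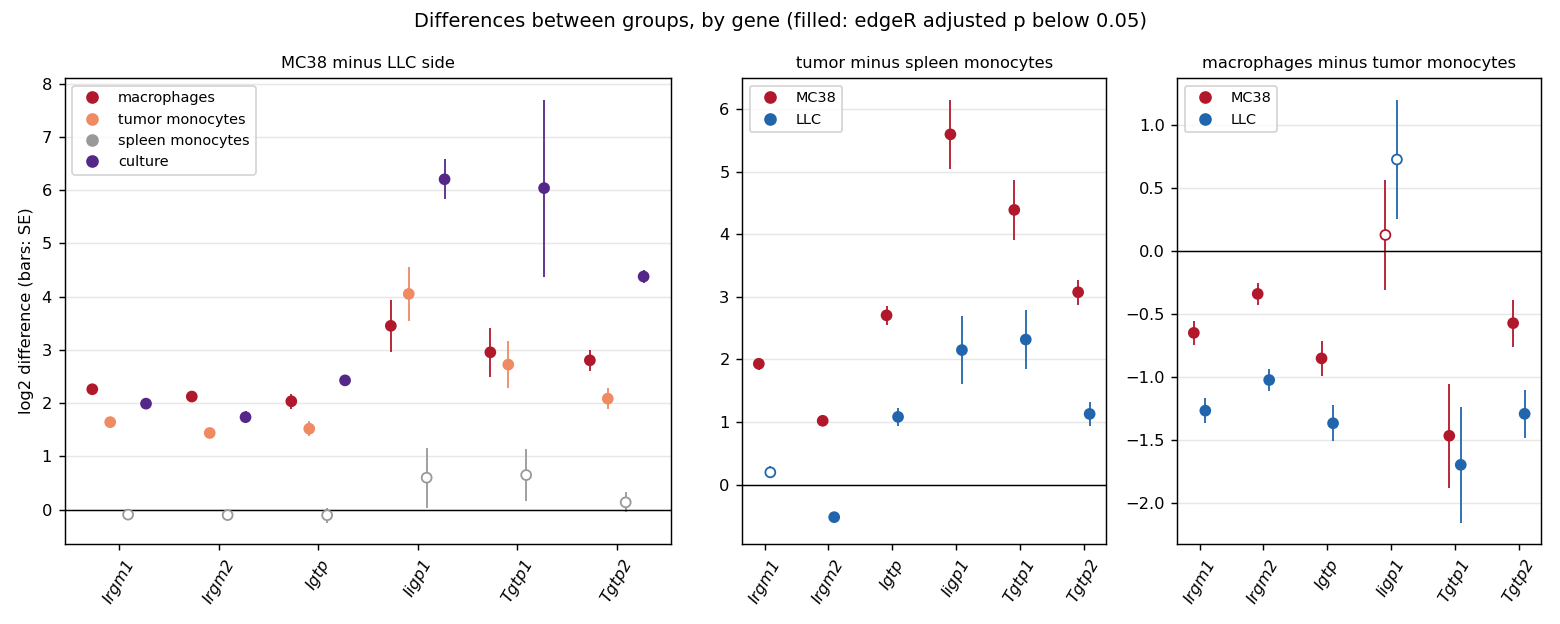
Log2 difference of each member (points) with its SE (bars), filled where the adjusted p was below 0.05, for the MC38 side minus the LLC side in 4 settings, tumor minus spleen monocytes, and macrophages minus tumor monocytes. In macrophages and tumor monocytes all points lie above 0, with Irgm1 at 2.26 and 1.64, while in spleen 0 of 6 were called.

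Macrophages held less of the family than the tumor monocytes of the same line, with Iigp1 as the exception. In MC38 tumors 5 members fell in macrophages against TuMon1, by log2 differences of -0.65 ± 0.096 for Irgm1, -0.34 ± 0.087 for Irgm2, -0.85 ± 0.14 for Igtp, -1.46 ± 0.41 for Tgtp1 and -0.57 ± 0.19 for Tgtp2 (edgeR adjusted p of at most 0.014). Tgtp2 lost its call without replicate 4 of TuMon1 (-0.51 ± 0.21, adjusted p = 0.0554). Of all genes 52.7% were called, 24.8% higher and 27.9% lower in macrophages, 47.1% of the calls being higher (58.1% under upper quartile scaling). Iigp1 measured 265, 287, 313 and 425 CPM in MC38 macrophages, against 259.8, 285, 302 and 332 CPM in TuMon1, overlapping values with a log2 difference of 0.13 ± 0.44 (adjusted p = 0.836).

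In LLC tumors the same 5 members fell in macrophages against TuMon2, by -1.27 ± 0.098 for Irgm1, -1.02 ± 0.09 for Irgm2, -1.37 ± 0.14 for Igtp, -1.7 ± 0.46 for Tgtp1 and -1.29 ± 0.19 for Tgtp2 on the log2 scale (edgeR adjusted p of at most 0.00406). Of all genes 55.5% were called, 29.2% higher and 26.3% lower in macrophages, 52.6% of the calls being higher (66.1% under upper quartile scaling). Iigp1 measured 29.1, 22, 25.8 and 41.3 CPM in LLC macrophages, against 15, 15.4, 18.2 and 22.2 CPM in TuMon2. Its groups overlapped and its log2 difference of 0.73 ± 0.48 did not pass (adjusted p = 0.207), though it did in the fit of only these groups (adjusted p = 0.00512) and without replicate 3 of LLC spMon, which shares in the estimate of spread (adjusted p = 0.027). The difference between these changes was called for Irgm1 (0.62 ± 0.14, adjusted p = 0.00278) and Irgm2 (0.68 ± 0.12, adjusted p = 4.56e-04), the fall being smaller on the MC38 side, with 14.5% of all genes called, 6.25% higher and 8.27% lower on the MC38 side. Igtp (0.51 ± 0.20) and Tgtp2 (0.72 ± 0.27) did not pass, but did without replicate 3 of LLC spMon (adjusted p = 0.0248 and 0.00299) and by DESeq2 (adjusted p = 0.0332 and 0.0203), and Igtp also without replicate 4 of the LLC macrophages (adjusted p = 0.0350).

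Against the spleen monocytes of MC38-bearing mice, MC38 macrophages were higher in all 6 members, from 0.68 ± 0.088 for Irgm2 to 5.73 ± 0.56 for Iigp1 on the log2 scale, with 71.9% of all genes called, 35.6% higher and 36.3% lower. Without the 5 doubted libraries all 6 stayed called, from 0.51 ± 0.13 for Irgm2 to 6.42 ± 1.13 for Iigp1. LLC macrophages were lower than LLC spMon in Irgm1 (-1.07 ± 0.098) and Irgm2 (-1.54 ± 0.09) and higher in Iigp1 (2.88 ± 0.53), all by edgeR adjusted p, with 64.6% of all genes called, 33.1% higher and 31.5% lower. For Igtp, Tgtp1 and Tgtp2 the log2 differences of -0.28 ± 0.14, 0.62 ± 0.49 and -0.16 ± 0.19 did not pass. Igtp passed without replicate 4 of the LLC macrophages (-0.42 ± 0.14, adjusted p = 0.0165) and without replicate 1 or 4 of LLC spMon (both -0.36 ± 0.15, adjusted p = 0.0399 and 0.0403), and with the stricter filter (-0.32 ± 0.14, adjusted p = 0.0488). Without replicate 3 of LLC spMon, Tgtp1 passed (1.31 ± 0.51, adjusted p = 0.0353), Tgtp2 turned positive (0.19 ± 0.12, not called) and Iigp1 reached 4.6 ± 0.39. LLC macrophages thus held Irgm1 and Irgm2 below, and Iigp1 above, their levels in the spleen monocytes.

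In culture, MC38 supernatant gave higher levels of all 6 members than LLC supernatant. Irgm1 measured 272, 266 and 242 CPM with MC38 supernatant, against 70.1, 65.2 and 66.9 CPM with LLC supernatant, a log2 difference of 1.99 ± 0.089 (3.98-fold; edgeR adjusted p = 1.62e-07). Iigp1 measured 20.4, 17.7 and 14 CPM with MC38 supernatant, against 0.365, 0.148 and 0.2003 CPM with LLC supernatant, a log2 difference of 6.2 ± 0.38 (edgeR adjusted p = 1.26e-06). Tgtp2 measured 121, 117 and 102 CPM with MC38 supernatant, against 5.6, 6.01 and 5.21 CPM with LLC supernatant, a log2 difference of 4.38 ± 0.12 (edgeR adjusted p = 8.50e-09). The groups did not overlap for any of the 3 genes, and Iigp1 was at the edge of detection with LLC supernatant. Igtp differed by 2.43 ± 0.095 and Irgm2 by 1.74 ± 0.11, both called. Tgtp1 differed by 6.04 ± 1.66 (adjusted p = 0.0206), with 2 of the 3 LLC-supernatant libraries at 0 counts, and lost its call without replicate 2 or 3 of the LLC supernatant or replicate 1 or 2 of the MC38 supernatant (log2 differences from 5.44 to 6.23, adjusted p from 0.0535 to 0.0913), and with no filter on low counts (adjusted p = 0.0535). Of all genes 40.1% were called, 21.6% higher and 18.5% lower with MC38 supernatant, and without the 5 doubted libraries Irgm1 was at 2.01 ± 0.053 and Iigp1 at 6.32 ± 0.22.

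Set against the same untreated controls, the 2 supernatants gave different counts of called members. With MC38 supernatant all 6 rose, by 2.07 ± 0.081 for Irgm1, 1.88 ± 0.10 for Irgm2, 2.25 ± 0.086 for Igtp, 6.37 ± 0.34 for Iigp1, 3.49 ± 1.27 for Tgtp1 and 3.66 ± 0.10 for Tgtp2 on the log2 scale, with 67.9% of all genes called, 35.4% higher and 32.5% lower. The call of Tgtp1 (adjusted p = 0.0377) was lost without any single MC38-supernatant library, without replicate 2 or 3 of the LLC supernatant and without replicate 4 of the control (3.04 to 3.70, adjusted p from 0.0562 to 0.0855). It was also lost by DESeq2 (3.49 ± 1.73, adjusted p = 0.0613), with no filter (adjusted p = 0.0868) and with the replicate block (adjusted p = 0.0686), while without the 5 doubted libraries all 6 were called. With LLC supernatant the log2 differences were 0.077 ± 0.081 for Irgm1, 0.14 ± 0.10 for Irgm2, -0.18 ± 0.086 for Igtp and 0.17 ± 0.37 for Iigp1, none of them called. Tgtp2 alone passed among the 6 in edgeR, and it fell: it measured 5.6, 6.01 and 5.21 CPM with LLC supernatant, against 8.62, 7.84, 10.9 and 9.29 CPM in the control, a log2 difference of -0.72 ± 0.10 (adjusted p = 1.36e-04), while 68.4% of all genes were called, 32.3% higher and 36.1% lower. In a fit of only these groups Irgm1 (0.22 ± 0.067, adjusted p = 0.019) and Irgm2 (0.28 ± 0.084, adjusted p = 0.0159) were called higher with LLC supernatant. Igtp also fell without the 5 doubted libraries (-0.22 ± 0.055, adjusted p = 0.00146) and without replicate 2 of the control alone (-0.24 ± 0.069, adjusted p = 0.0107), and without replicate 1 of the LLC supernatant Tgtp1 did (adjusted p = 0.0374, both remaining libraries at 0). T and NK cell markers summed to 1.02 to 1.48 CPM with MC38 supernatant, 3.81 to 4.3 CPM with LLC supernatant and 9.97 to 14.6 CPM in the control. Macrophage markers summed to 4771 to 6076 CPM with MC38 supernatant, 6595 to 6787 CPM with LLC supernatant and 331 to 427 CPM in the control, and their part was not tested.

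The MC38-minus-LLC difference was larger in culture than between the tumor monocytes for Igtp (by 0.87 ± 0.21, adjusted p = 0.00172), Tgtp1 (3.26 ± 1.19, adjusted p = 0.0388) and Tgtp2 (2.25 ± 0.27, adjusted p = 2.71e-07) in an edgeR fit of all 34 libraries, in which 30.8% of 14582 genes were called, 16% higher and 14.8% lower in culture. It was 0.30 ± 0.15 for Irgm1, 0.26 ± 0.15 for Irgm2 and 2.11 ± 1.02 for Iigp1, none called. Without the 5 doubted libraries Irgm1 (0.35 ± 0.14, adjusted p = 0.0466) and Irgm2 (0.35 ± 0.13, adjusted p = 0.0277) were called and Tgtp1 was not (2.88 ± 1.41, adjusted p = 0.119), while Igtp (0.97 ± 0.22) and Tgtp2 (2.32 ± 0.32) kept their calls. Irgm1 was also called with the stricter filter (0.35 ± 0.14, adjusted p = 0.0477) and Iigp1 by DESeq2 (2.12 ± 0.86, adjusted p = 0.0412). Tgtp1 lost its call as well with no filter (adjusted p = 0.0551) and without replicate 2 or 3 of the LLC supernatant, replicate 3 of the MC38 supernatant, replicate 2 of TuMon1 or replicate 3 or 4 of TuMon2 (2.66 to 3.19, adjusted p from 0.0504 to 0.125), and Iigp1 gained one without replicate 3 of LLC spMon (2.11 ± 0.59, adjusted p = 0.00693). In absolute level the order was the reverse: TuMon1 held 555 ± 35.1 CPM of Irgm1 and cultured cells with MC38 supernatant 260.1 ± 15.9 CPM. For Iigp1 the gap was wider, with 295 ± 30.04 CPM in TuMon1 and 17.3 ± 3.22 CPM in those cultured cells, whose libraries overlapped those of TuMon2.

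To compare genes with each other, levels were divided by exon length (CPM per kilobase of exon). Iigp1 and the Tgtp pair each held their largest mean shares in the 2 groups from MC38 tumors. For Iigp1 the TuMon1 libraries (9.98% to 11.5%) overlapped those of LLC macrophages (8.01% to 10.7%). Iigp1 held 17.9% ± 2.73 of the summed length-scaled level in MC38 and 9.04% ± 1.15 in LLC macrophages (SD, n = 4 each), 10.9% ± 0.652 in TuMon1 and 2.4% ± 0.265 in TuMon2, and 2.12% ± 0.244 with MC38 supernatant, 0.139% ± 0.0642 with LLC supernatant and 0.122% ± 0.053 in the control (n = 3, 3 and 4). In each of the 2 tumors the share of Iigp1 was higher in macrophages than in monocytes. Irgm1 held its smallest shares in the 2 groups from MC38 tumors, with 26.8% ± 1.15 in MC38 macrophages and 27.8% ± 0.719 in TuMon1. It held 31.3% ± 2.35 in LLC macrophages and 32.8% ± 0.966 in TuMon2, and in both tumors macrophage and monocyte libraries overlapped. Its share was 41.3% ± 1.05 in MC38 and 43% ± 2.17 in LLC spleen monocytes. In culture it was 43.4% ± 1.42, 53.8% ± 1.3 and 50.5% ± 0.645 with MC38 supernatant, with LLC supernatant and in the control. The Tgtp pair together held 28.6% ± 0.706 in TuMon1 and 22.4% ± 0.368 in TuMon2, against 3.77% ± 0.293 with LLC supernatant. These shares describe the libraries and were not tested.

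**Figure D3:**
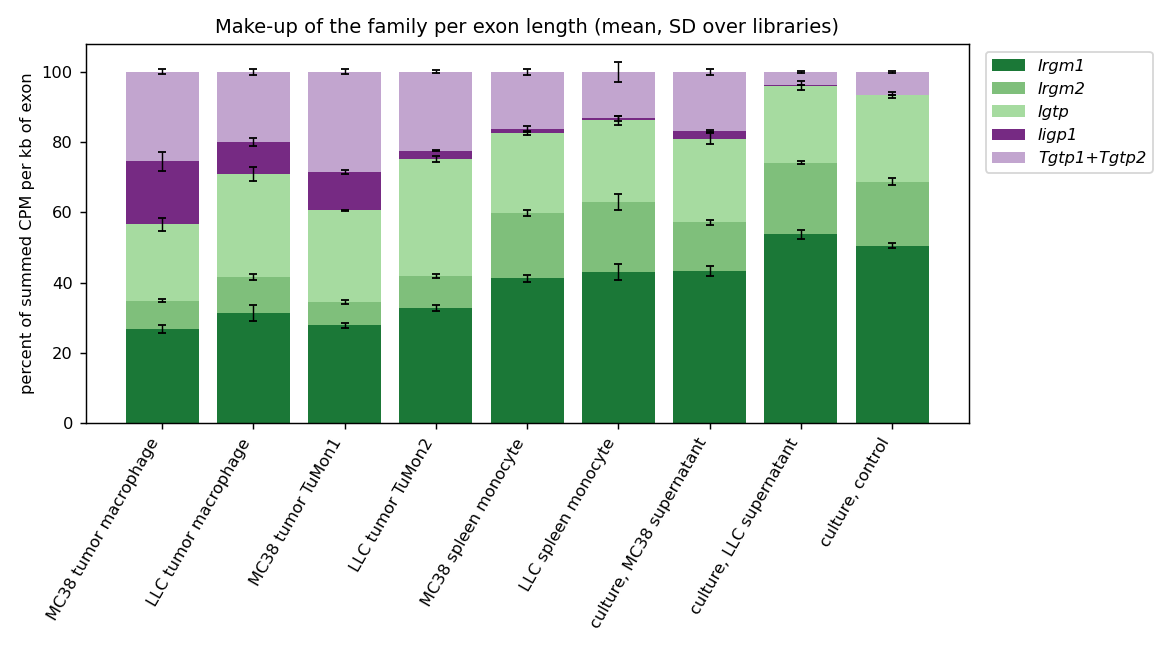
Share of each member in the summed CPM per kilobase of exon of the family (stacked, percent), by group, with the SD of each share over 4 libraries a group (3 for each supernatant) drawn at the top of its band. The Iigp1 band is widest in MC38 macrophages, at 17.9%, and not visible in the LLC-supernatant and control cultures.

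Tgtp1 and Tgtp2 could not be cleanly separated. Their coding sequences were 99.7% identical, with 4 mismatches in 1245 bases, and their transcripts 99.8%, so few positions can tell their reads apart, whereas other pairs of members were 61.7% to 74.6% identical. The counts assigned to Tgtp1 made up 0% to 33.1% of the pair, on average 26.6% in TuMon1 and 18.7% in TuMon2, with Tgtp1 at 0 in 3 cultured libraries. The sum of the pair is free of this split. It measured 663, 688, 657 and 778 CPM in TuMon1, against 140.4, 136, 151 and 167 CPM in TuMon2, without overlap (log2 difference 2.23 ± 0.20, edgeR adjusted p = 9.99e-09). The sum differed by 2.82 ± 0.21 between MC38 and LLC macrophages, by 4.46 ± 0.10 between MC38 and LLC supernatant and by -0.82 ± 0.09 between LLC supernatant and control (edgeR adjusted p = 2.73e-10, 2.21e-09 and 1.59e-05). Irgm2 and Igtp share 162 bases of exon on the same strand, so reads there could count for either gene.

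Of the further genes of the IRG family in the table (11 genes), 9 rose in TuMon1 against TuMon2, 1 fell and 1 did not pass, with a median log2 difference of 1.49. Ifi47, also called Irg47, averaged 504 ± 33.1 CPM in TuMon1 and 184 ± 9.62 CPM in TuMon2 (log2 difference 1.46 ± 0.12), and Gm12250, also called Irgb10, 180.3 ± 7.37 and 71.8 ± 5.01 CPM (1.33 ± 0.11). Gm4951 rose most of the 11, by 3.88 ± 0.36. Irgq, a quasi-GTPase of the family, was the gene of this list that fell (-0.39 ± 0.12), and Irgc1, a family gene known from testis, was at -0.18 ± 0.37 (not called). In macrophages 9 rose in MC38 and Irgc1 and Irgq fell, with a median of 1.86. In culture 8 of 11 were higher with MC38 than with LLC supernatant and Irgc1 was lower, with a median of 1.23, and without the 5 doubted libraries 8 were higher and 2 lower. In spleen 0 of 11 were called by edgeR, beside 28.4% of all genes. Among all genes the shares called were 26.8% higher and 22.1% lower for TuMon1, 22.4% higher and 22.9% lower for MC38 macrophages and 21.6% higher and 18.5% lower with MC38 supernatant. The 2 letter patterns were both in the promoters of Gm12250 and Gm12185, the ISRE core alone in that of 9930111J21Rik1, and neither in those of Ifi47, Gm5431, 9930111J21Rik2 and Irgq. Those of Gm4841, Gm4951, F830016B08Rik and Irgc1 were not examined.

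Guanylate-binding proteins (GBP) are a related family of interferon-inducible GTPases that act on the same vacuoles. All 11 rose in TuMon1 against TuMon2, with a median log2 difference of 1.55 beside 0.06 over all genes, among them Gbp3 (1.1 ± 0.12), Gbp6 (2.6 ± 0.30) and Gbp8 (3.36 ± 0.34). All 11 also rose in MC38 against LLC macrophages (median 2.67), and 8 of 9 tested with MC38 against LLC supernatant (median 2.08), also without the 5 doubted libraries. These counts stand beside 26.8%, 22.4% and 21.6% of all genes called higher in the same 3 comparisons. Gbp10 had 179 counts over the MC38-supernatant libraries and 0 with LLC supernatant, at least 60.5-fold higher when those libraries are set to 3 counts in sum.

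Of the interferon-gamma list (ligand, receptor and signalling), 5 of 9 tested rose and 2 fell in TuMon1 against TuMon2 (median 0.45). Irf1, a transcription factor induced by interferon gamma, averaged 641 ± 99.6 CPM in TuMon1 and 279 ± 43.9 CPM in TuMon2 (log2 difference 1.2 ± 0.17). The receptor chain Ifngr1 fell, with 282 ± 26.6 CPM in TuMon1 and 447 ± 16.9 CPM in TuMon2 (-0.67 ± 0.088), and the feedback inhibitor Socs1 rose (1.57 ± 0.23). In macrophages 5 rose and 2 fell in MC38, Irf1 at 1.42 ± 0.17 and Ifngr1 at -1.28 ± 0.089, with a median of 0.30. With MC38 against LLC supernatant 6 of 9 were higher and 0 lower (median 0.55), Irf1 by 1.25 ± 0.089 and Socs1 by 2.51 ± 0.34. Ifngr1 was at -0.24 ± 0.10 (not called). Without the 5 doubted libraries 8 were higher and 1 lower. Irf1 measured 92, 105 and 83.7 CPM with MC38 supernatant and 41.6, 40.9 and 39.1 CPM with LLC supernatant. In the control it measured 89.6, 69, 85.7 and 81.4 CPM, overlapping the MC38-supernatant libraries. Set against the control, the list median was 0.24 with MC38 and -0.55 with LLC supernatant. The shares over all genes were 26.8% higher and 22.1% lower for TuMon1, 22.4% higher and 22.9% lower for MC38 macrophages and 21.6% higher and 18.5% lower with MC38 supernatant.

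Interferon gamma itself was hardly seen in these cells. Ifng had 13 counts over the 4 MC38 macrophage libraries and 3 over the LLC ones, 21 in TuMon1 and 8 in TuMon2, and 1 in MC38 and 27 in LLC spleen monocytes, too few to enter the test. It had 0 counts in all 10 cultured libraries, which allows up to 0.0397 CPM with MC38 supernatant, 0.0392 CPM with LLC supernatant and 0.0329 CPM in the control (3 counts over the group, counting error only). Cells other than these monocytes and macrophages were not analysed here.

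Of the type I interferon list, 5 of 9 rose in TuMon1 against TuMon2 and 0 fell (median 0.16), among them Irf7 (1.81 ± 0.12), a factor that amplifies type I interferon, and Usp18 (1.49 ± 0.15), an inhibitor of its receptor. The ligand gene Ifnb1 was at -1.22 ± 0.56 (adjusted p = 0.0765), with 37 counts in TuMon1 and 67 in TuMon2. In macrophages 4 rose and 3 fell in MC38 (median 0.69), Irf7 by 2.09 ± 0.12 and Usp18 by 2.34 ± 0.16. With MC38 against LLC supernatant 6 of 9 rose and 0 fell (median 0.90), Irf7 by 3.99 ± 0.12, and 7 rose without the 5 doubted libraries. Set beside these counts, the shares of all genes called were 26.8% higher and 22.1% lower for TuMon1, 22.4% higher and 22.9% lower for MC38 macrophages and 21.6% higher and 18.5% lower with MC38 supernatant. Set against the culture control, the median of the type I list was 0.80 with MC38 and -0.41 with LLC supernatant. In culture Ifnb1 had 13, 13 and 11 counts with MC38 supernatant (0.549, 0.556 and 0.387 CPM) and 0 with LLC supernatant and in the control, at least 12.5-fold and 14.9-fold higher against 3 counts over the group.

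The ATG8 conjugation machinery, which in mouse cells is needed to place these GTPases on vacuoles, showed no common direction. Of 12 genes 1 rose and 1 fell in TuMon1 against TuMon2 (median 0.035), Atg10 at 0.44 ± 0.17 and Atg7 at -0.40 ± 0.07. In macrophages 0 rose and 3 fell in MC38, Atg7 at -1.19 ± 0.071, and in culture 1 rose and 4 fell with MC38 against LLC supernatant, Atg3 at 0.49 ± 0.064 and Gabarapl1 at -0.62 ± 0.12 (2 rose and 6 fell without the 5 doubted libraries). Over all genes 48.9% were called in either direction between the tumor monocytes, 45.3% between the macrophages and 40.1% between the supernatants. In spleen monocytes 2 of these genes, 1 GBP gene and none of the interferon genes were higher in MC38-bearing mice, and 2 GBP genes, 3 of the interferon-gamma list and 3 of the type I list were lower, beside 14.4% higher and 14% lower over all genes. Without the 5 doubted libraries 0 genes of these lists were called in spleen, where 1 MC38 spMon library remained.

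**Figure D4:**
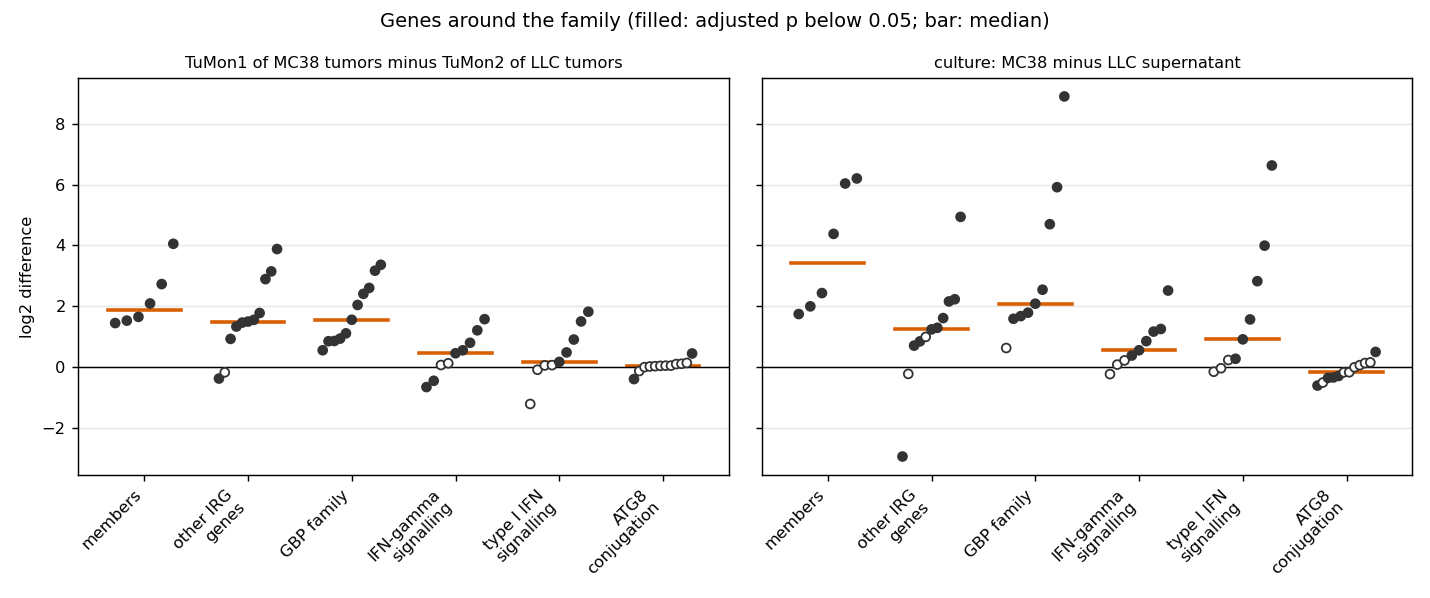
Log2 differences of the members and of 5 gene lists between TuMon1 and TuMon2 and between MC38 and LLC supernatant; filled points were called at an adjusted p below 0.05 and bars mark list medians. GBP and further IRG genes lie above 0 in most cases and the ATG8 machinery around 0; Ifnb1 and Gbp10 had 0 counts with LLC supernatant, so their plotted values depend on the prior count and are no bound.

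To find genes with a like pattern, the members' log2 CPM over the 9 group means, each brought to the same mean and spread and with Tgtp1 and Tgtp2 summed, were averaged into 1 profile. Among 9808 other genes with a mean of at least 10 CPM in some group, predicted gene models left aside, the 10 with the highest Pearson r were Phf11b (0.988), Xaf1 (0.986), Ifih1 (0.986), Phf11a (0.984), Gbp10 (0.980), H2-K1 (0.979), Parp9 (0.977), Irf7 (0.977), Ifit3b (0.975) and Oas1a (0.975). Ifih1 encodes a sensor of viral RNA, Ifit3b and Oas1a products of interferon-stimulated genes, and H2-K1 a class I antigen-presenting molecule. Each member followed the profile of the other members with r from 0.879 for Irgm2 and 0.880 for Iigp1 to 0.981 for Igtp. Among the further IRG genes, r with the family profile ranged from -0.54 for Irgq to 0.981 for Gm12250. The 9 points share their libraries and scaling, and r is a description.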

How the data were processed

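The authors deposited 1 table of expected counts per Entrez Gene ID for 34 libraries, sequenced, per the labels' protocols, after TRIzol extraction (100 ng RNA), a stranded KAPA kit and 14 PCR cycles. Reads were processed with CASAVA 1.8.2 on GRCm38 (mm10), per the submitters' processing notes, while aligner and counter are not named in these sources. Of its values 14.62% are not whole, so reads shared by near-identical genes such as Tgtp1 and Tgtp2 may have been divided. Values were rounded, changing no total by more than 0.000368%. Symbols came from RefSeq GRCm38.p6 for 24375 of 24475 IDs. Titles gave the groups, since the tumor label of MC38 samples is numbered on from one to the next.

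Libraries from mice (24 libraries, 13200 genes) and from culture (10 libraries, 12603 genes) had a fit each in edgeR 4.0.16 under R 4.3.3, with genes kept by filterByExpr, TMM scaling and the 2-sided quasi-likelihood test, adjusted by Benjamini-Hochberg over all genes at 0.05. Culture and tumor were compared in a fit of 34 libraries (14582 genes). Each SE is the size of the log2 difference divided by the root of F. Levels are CPM on TMM library sizes over all libraries. Lengths are union exons of GENCODE vM21 basic. Figures used matplotlib 3.10.9. The steps were tested on simulated counts, in which 200 genes were changed in a single group and all other genes had the same mean in every group. In the data far more genes were called, so the rates below need not hold there. Over the comparisons simulated, 28.6% to 53.7% of 1.5-fold, 50.8% to 75.8% of 2-fold and 73.8% to 93.9% of 4-fold changes were recovered. At most 6 unchanged genes were called in any of them. A gene that was not called may therefore still differ. Replicates differed by more than sampling noise, and totals of 13047772 to 26966644 counts per library leave the lowest genes at few counts, which limits their precision.

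The members and gene lists were chosen with earlier results of these data known. From the interferon-gamma list 1 gene is not reported here and is left out of its counts and medians. List genes were named by the smallest adjusted p, and others by role; those named for other reasons were chosen after their values were seen. Results were also computed with upper quartile or RLE scaling, with a stricter filter (5 CPM in 3 libraries) or none, with DESeq2 1.42.0, with the replicate number as a block, on only the groups compared, and with libraries left out. Counts of list genes without the 5 doubted libraries were added after the data were seen.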

Additional observations from a re-analysis of the deposited data

Results flagged for a closer look

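Of 42 sets of 4 libraries checked, 5 held a library that stood far from the other 3, where chance gives about 1 in 20 for separate sets. These sets reuse the same libraries for each member and are not separate, so the count cannot be weighed against that rate. Replicate 3 of LLC spMon was flagged as far above the others for Irgm1 (194.6 CPM, the next at 145.0), Iigp1 (11.4 CPM, the next at 1.52), Igtp (104.8 CPM, the next at 69.0) and Tgtp2 (91.0 CPM, the next at 44.3). Replicate 4 of TuMon1 was the highest for Igtp (494.7 CPM, the next at 444.8).

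The tumor-minus-spleen change of monocytes differed between the MC38 and the LLC side for Irgm1 (1.74), Irgm2 (1.54), Iigp1 (3.45), Igtp (1.62), Tgtp1 (2.07) and Tgtp2 (1.95) on the log2 scale, by edgeR. The macrophage-minus-monocyte change differed for Irgm1 (0.62) and Irgm2 (0.68). The MC38-minus-LLC difference was larger in culture than in tumor monocytes for Igtp (0.87), Tgtp1 (3.26) and Tgtp2 (2.25).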

How the results depend on the processing

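Counts of called members stayed within 1.5 times of the values given in 468 of 476 repeats, and 2757 of 2825 member log2 differences kept their direction and side of the threshold, with 31 gaining a call, 25 losing one and 12 changing sign. No cause of these changes was tested. Many repeats left out a library of a group not compared, which can change only the filter, scaling and spread. The rule of 1.5 times also lets a count of 6 become 4. The high shares are thus in part set by the way the repeats were made. Between spleen groups the member count of 0 became 2 without replicate 3 of LLC spMon (0 to 2 over single libraries left out). For the difference of macrophage-minus-monocyte changes the count of 2 became 4 by DESeq2, in a fit of only the groups compared and without replicate 3 of LLC spMon (2 to 4). For LLC supernatant against control the count of 1 became 2 without the 5 doubted libraries and 3 (2 higher and 1 lower, with 5 members tested) in a fit of only these groups (1 to 2 over single libraries). In the spleen comparison signs turned for Irgm1 (0.065 without the 5 doubted libraries, 0.028 without replicate 3 of LLC spMon, 0.016 with only these groups), Irgm2 (0.067 without the 5, 0.0059 with only these groups), Igtp (0.043, 0.096 and 0.0076 in the order given for Irgm1; with single libraries left out Irgm1 lay between -0.16 and 0.028 and Igtp between -0.19 and 0.096) and Iigp1 (-0.095 without the 5). Iigp1 was at -0.035 in MC38 macrophages against TuMon1 without replicate 4 of the macrophages and at -0.25 with LLC supernatant against control without replicate 1 of the supernatant (up to 0.49 with other libraries left out), and Tgtp2 at 0.19 in LLC macrophages against LLC spMon without replicate 3 of those spleen libraries (down to -0.28 with others left out); none of these was called. Over all genes, the spleen count of 3755 calls was 22 without the 5 doubted libraries, 6640 without replicate 4 of MC38 spMon and 944 with only these groups, and the tumor-minus-spleen count of 5661 was 3600 without the 5. Upper quartile scaling put the median of all genes at -0.18 instead of -0.044 (TuMon1 against MC38 spMon), 0.095 instead of -0.015 (MC38 macrophages against TuMon1) and 0.21 instead of 0.059 (LLC macrophages against TuMon2), and the members kept their calls there. Pooled over all groups, same-numbered libraries deviated together with a median r of 0.0245 from mice (6 of 60 pairs above 0.1) and -0.0598 in culture (1 of 9). The pairs from mice include MC38 libraries set against LLC libraries. They cannot decide whether same-numbered samples of the same tumor line were paired. The replicate block used the same term for both lines and cannot decide it either. The replicate block changed 1 member's call, that of Tgtp1 with MC38 supernatant against control (4.58, adjusted p = 0.0686), so 5 members were called there. Irgm1 in TuMon2 against LLC spMon passed under RLE scaling (0.24, adjusted p = 0.0276) and by DESeq2 (0.24, adjusted p = 0.0201). Depth limits Iigp1 and Tgtp1 in cultures without MC38 supernatant, and Ifng everywhere.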

Other observations

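Not every gene of the IRG family followed the 6 members. The family gene 9930111J21Rik1, with an ISRE core in its promoter, averaged 92.4 ± 19.8 CPM in MC38 and 35.8 ± 4.56 CPM in LLC macrophages, 156 ± 16.9 CPM in TuMon1 and 82.3 ± 5.46 CPM in TuMon2, 136 ± 34.4 CPM in spleen monocytes of MC38-bearing and 166 ± 5.86 CPM in those of LLC-bearing mice, and 101 ± 34.8, 64.1 ± 7.29 and 122 ± 20.8 CPM with MC38 supernatant, with LLC supernatant and in the control. Its mean was highest in LLC spMon, where those of Irgm1, Igtp, Iigp1 and the Tgtp genes were in the middle or lower part of the order, and its r with the family profile over the 9 groups was 0.335. Gm12185, whose exons share 223 bases with those of Tgtp1, averaged 51 ± 2.7 CPM in TuMon1 and 6.83 ± 1.11 CPM in TuMon2, and its counts may include reads of the Tgtp genes.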
